A study of Mus musculus with 24 samples.

Results

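PLZF+ γδ T cells from epididymal adipose tissue were compared with PLZF+ γδ T cells from a pair of lymphoid tissues, the spleen and the inguinal lymph nodes. The comparison used 9 of the 24 libraries of the series, 3 per tissue, with the adipose mean set against the average of the spleen mean and the lymph node mean. All 7915 genes of the normalized expression table were read, after 11 rows marked as collapsed were left out, and the 3294 genes that reached at least 10 normalized reads in at least 3 libraries were tested. The cells came from male C57Bl/6 mice carrying a PLZF-GFP reporter, 16 to 22 weeks old and fed ad libitum, with no treatment. The reporter was present in all groups and served as the sorting gate. The series describes 2 replicates per subset, each pooled from 10 mice, whereas the labels list 3 libraries per group. No label ties a library to a separate pool, so the p-values measure the spread between these libraries. The other 15 libraries, PLZF- cells of the same tissues and both subsets from lung, entered only as part of the fit or where they are named. The word elsewhere, and a range given after against, refer below to the 6 lymphoid PLZF+ libraries only.

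PLZF, encoded by Zbtb16, is a transcription factor that gives T cells an innate-like effector programme while they still develop in the thymus. Among γδ T cells it marks subsets that leave the thymus ready to secrete cytokines, IL-17A among them, and that settle in tissues such as adipose tissue. Adipose γδ T cells are known for IL-17A that acts on stromal cells and for a part in heat production. Zbtb16 itself was not analysed here, so the sorting gate could not be checked by its target. Genes of the γδ T cell receptor were read in all 9 libraries. Tcrg-C2, a constant region of the receptor γ chain, had between 90.8 and 234 normalized reads in the adipose libraries and between 343 and 592 in the lymphoid ones.

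Normalized reads are whole reads recovered from the deposited log2 values and multiplied by a factor for each library. A single read was worth 1.31, 1.49 and 2.52 normalized reads in adipose libraries 1, 2 and 3, and between 0.51 and 0.783 in the lymphoid libraries. The adipose libraries were therefore the shallower ones, with 236510, 247552 and 198166 reads over the table, against 316000 to 527542 in the 6 lymphoid libraries. The table holds only genes that passed the authors' own test of the 4 tissues, so every share of genes below refers to a table already enriched for such differences. The gene lists below are cut in the same way. For example, the table held 12 of 75 listed nuclear subunits of oxidative phosphorylation. Adjusted p-values were computed within that table too and need not keep the false discovery rate they state.

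Genes of other adipose cells were present in the adipose libraries, and least so in library 1. The 20 endothelial marker genes in the table made up 0.163% of normalized reads in adipose library 1, 3.27% in library 2 and 4.64% in library 3, against at most 0.0661% in any lymphoid library. Adipocyte markers, 17 genes, made up 0.228%, 2.06% and 3.21% in the same order, and 23 fibroblast and stromal markers made up 0.583%, 2.48% and 3.19%. Macrophage and monocyte markers went the other way, with 2.44% in library 1, 0.633% in library 2 and 1.48% in library 3, where the spleen libraries held 0.773% to 1.65%. The γδ T cell receptor and CD3 genes made up 1.82% or more of normalized reads in every lymphoid library and 1.19%, 0.805% and 0.397% in the adipose libraries. In sorted bulk cells of this kind, fewer cells of a type and less RNA per cell cannot be told apart. B cell markers were the mirror image: they made up 0.946% to 2.5% of the spleen libraries, about 0.12% of the lymph node libraries and at most 0.0719% of the adipose libraries. The dendritic cell and MHC class II list, of which 3 genes were in the table, was highest in adipose library 1, at 2.33% of normalized reads against 0.301% and 0.657% in libraries 2 and 3. Lymph node library 1 held 1.13% and stood apart from the other two, with 1599 normalized reads of Cd74, the invariant chain of MHC class II, against 34.4 and 80.3.

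**Figure D1:**
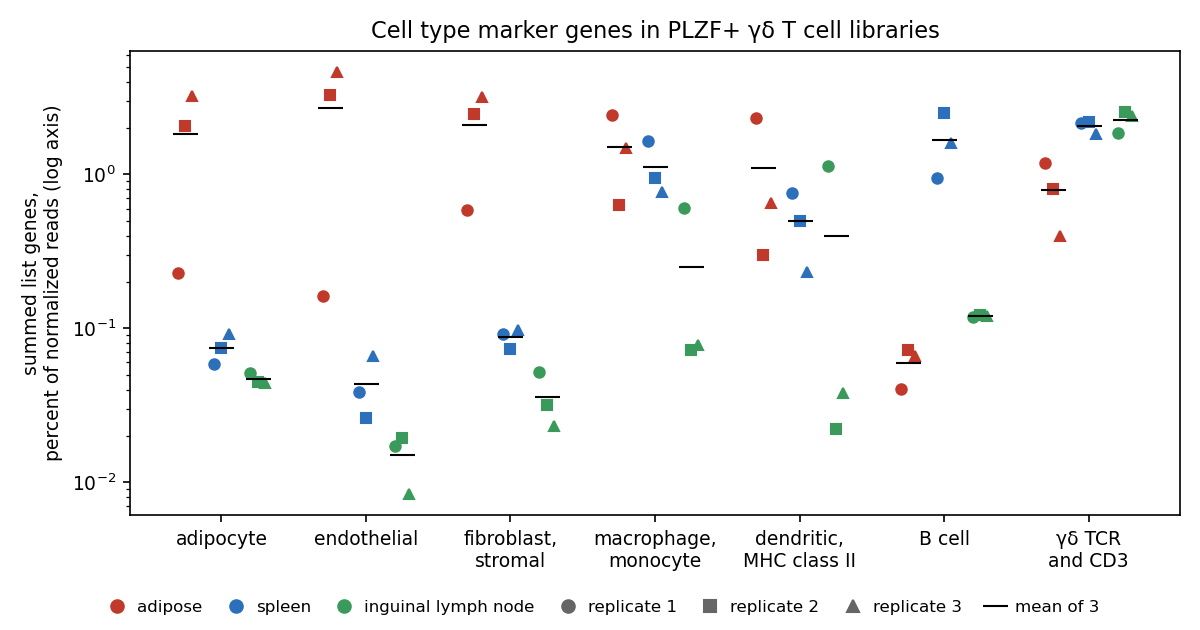
Summed marker genes of 7 cell types as a percentage of normalized reads (log axis) in the 9 PLZF+ libraries, with points for libraries and a dash for the mean of each tissue. Adipose library 1 (red circles) holds 0.163% endothelial and 0.228% adipocyte marker reads, where libraries 2 and 3 hold 2.06% or more of each.

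Across the tested genes, 1110 of 3294 (33.7%) were higher in adipose PLZF+ cells and 605 (18.4%) were lower, by limma with Benjamini-Hochberg adjusted p under 0.05. Every adipose library lay above every lymphoid library for 818 genes (24.8%) and below every one for 666 (20.2%). Library 3 carried the most weight: without it 443 genes were higher and 235 lower, and without library 2 the counts were 650 and 328, whereas without library 1 they were 1119 and 589. The balance of higher and lower calls depended on how libraries were put on a common scale. Over all tested genes the median log2 difference was 0.51 on the deposited scale, -0.28 after quantile scaling, -0.11 with scaling to total reads alone, without TMM and 1.42 when libraries were scaled to their CD3 genes. The deposited values add 0.5 read before the log, which is worth more normalized reads in the shallower adipose libraries. With log2(normalized reads + 1) instead, the median was 0.39, with 1047 genes higher and 598 lower. The counts became 617 higher and 1054 lower with quantile scaling, 616 and 1018 with total-read scaling, and 1473 and 127 with CD3 scaling. Calls of the same direction under all 4 scalings numbered 557 higher (16.9%) and 127 lower (3.86%), a criterion added after the values had been seen. Genes described below passed it unless stated otherwise.

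Adipose library 1, the one with the least RNA of endothelial cells and adipocytes but the most of macrophage and MHC class II genes, was then set alone against the 6 lymphoid libraries, its spread taken to be that of the other groups. The log2 difference had the same sign in 1068 of the 1110 higher genes and in 604 of the 605 lower genes. With this single library 78 genes (2.37%) passed as higher and 44 (1.34%) as lower. Of the 1110 higher genes, 456 had a value in library 1 below 0.25 times the mean of libraries 2 and 3, and 426 lay within 2-fold of it. Of the 605 lower genes 23 and 407 did so. Of 115 tested genes on the marker lists of other cells 70 were higher, and 51 of those 70 fell in the former class. Library 1 by itself lay above every lymphoid library for 1024 genes (31.1%) and below every one for 870 (26.4%).

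**Figure D2:**
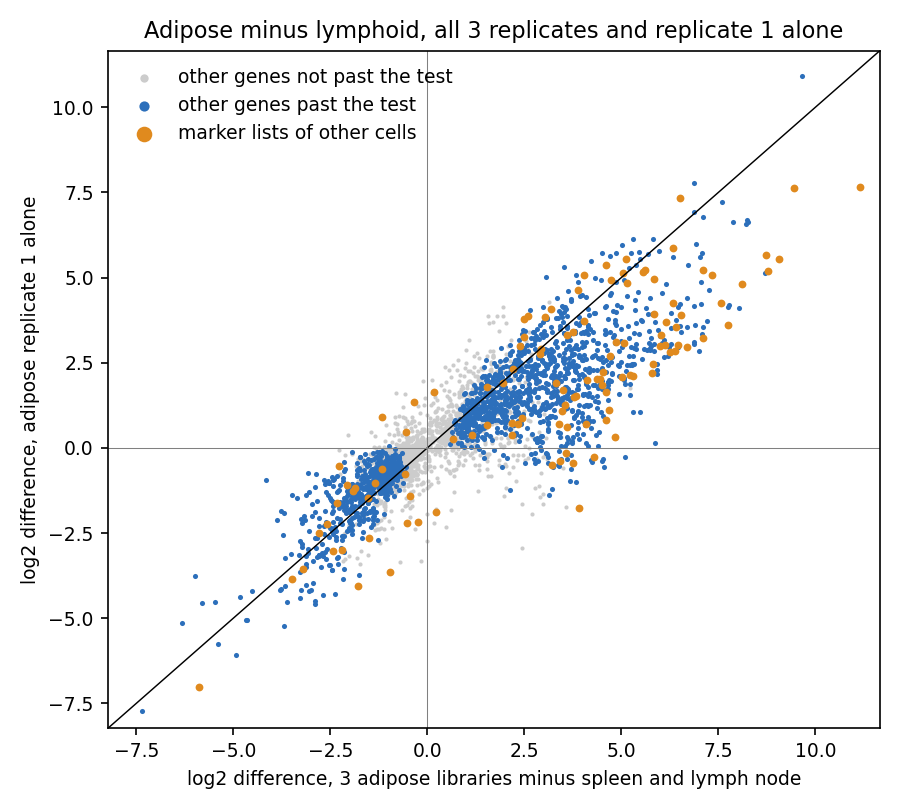
Log2 difference between adipose and lymphoid PLZF+ cells for 3294 genes, with all 3 adipose libraries (x axis) and with adipose library 1 alone (y axis); the diagonal marks equal values. Marker genes of other cells (orange) lie mostly below the diagonal on the higher side, and 604 of 605 lower genes keep their sign.

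Immediate early genes, which encode short-lived transcription factors and feedback regulators transcribed within minutes of a receptor signal or stress, were higher in adipose cells throughout. All 28 tested of 32 listed passed as higher, beside 33.7% of all tested genes, and 26 of them under all 4 scalings. Their median log2 difference was 3.92 on the deposited scale and stayed between 3.31 and 4.83 under the other scalings. Every adipose library exceeded every lymphoid library for 25 of the 28, beside 24.8% of all tested genes. With adipose library 1 alone 13 of the 28 passed.

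Fosl2, an AP-1 subunit, had 1728, 1384 and 1875 normalized reads in adipose libraries 1 to 3. The spleen libraries had 32.5, 55 and 35.1, and the lymph node libraries had 45.9, 47 and 18.1. The adipose libraries were close to each other and far above all others, with a log2 difference of 5.48 (SE 0.41, limma adjusted p = 7.86e-08) and 5.54 with library 1 alone (adjusted p = 0.000186). The NR4A family of orphan nuclear receptors, which respond to antigen receptor signalling in T cells, rose as a family. Nr4a1 had 902, 1358 and 2505 normalized reads in adipose, 177, 43.4 and 68.4 in spleen, and 38.8, 7.83 and 28 in lymph node, so that no adipose value came near a lymphoid one (log2 difference 5.14, SE 0.56, adjusted p = 3.8e-06). Nr4a2 was at 180, 239 and 194 in adipose and at most 8.1 elsewhere (5.97, SE 0.72, adjusted p = 1.23e-05). Nr4a3 was at 503, 299 and 444 in adipose and at most 21.9 elsewhere (5.45, SE 0.71, adjusted p = 2.29e-05). All 3 receptors passed with library 1 alone, at adjusted p = 0.00648 for Nr4a1, 0.00758 for Nr4a2 and 0.00757 for Nr4a3. Btg2, an antiproliferative gene, had 1401, 1406 and 2112 normalized reads in adipose and a narrow 246 to 321 in the 6 lymphoid libraries (2.45, SE 0.28, adjusted p = 9.12e-06).

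Other members differed in how evenly the adipose libraries carried them. Fos, the founding AP-1 subunit and the member with the highest log2 difference of the list (7.08, SE 1.1, adjusted p = 0.000145), had 733, 2209 and 4173 normalized reads in adipose libraries 1, 2 and 3 and at most 166 in the lymphoid libraries. Egr1, a zinc finger factor, had 265, 1339 and 2331 in adipose and at most 75.6 elsewhere. Both were picked here after their values were seen, because library 1 held the lowest level, the order in which the endothelial and adipocyte markers run. With library 1 alone neither passed, at adjusted p = 0.0688 for Fos and 0.144 for Egr1. The part of other cells in these levels was not tested. How each tissue was brought into suspension before sorting is not given in the sources used here, so tissue and handling cannot be told apart.

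The promoters of the group were read for the full cyclic AMP response element, TGACGTCA, which is its own reverse complement, since cyclic AMP and calcium signals act on several of these genes through it. RefSeq promoters of build GRCm38.p6, 250 bases before to 50 bases after the start site, were found for 25 of the 28 genes. The element stood in 4 of them, Btg2, Dusp1, Maff and Ppp1r15a, which is 16% beside 3.09% of the 2330 tested genes with a promoter and 2.03% of all 27025 promoters. Of the 8 promoters of NF-κB feedback genes described below, Nfkbid held it, and of 6 promoters of cyclic AMP-responsive and clock genes, 0 held it in this window. An AP-1 site, TGANTCA on both strands, stood in 1 of the 25, Csrnp1, beside 9.23% of tested genes. The stretches upstream of the start site are given 5′ to 3′ on the gene's strand with the element in capitals; a match is a description of sequence, and the element was not shown to be bound in these cells.
Btg2, chr1:134079274-134079361, minus strand: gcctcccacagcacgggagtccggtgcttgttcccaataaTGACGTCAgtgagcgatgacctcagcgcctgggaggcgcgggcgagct
Dusp1, chr17:26508568-26508655, minus strand: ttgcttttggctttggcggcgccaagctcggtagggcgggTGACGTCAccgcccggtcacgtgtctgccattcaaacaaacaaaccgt
Maff, chr15:79347451-79347519, plus strand: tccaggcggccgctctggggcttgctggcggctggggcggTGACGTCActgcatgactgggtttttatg
Ppp1r15a, chr7:45526269-45526320, minus strand: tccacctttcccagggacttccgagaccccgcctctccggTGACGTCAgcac
Nfkbid, chr7:30422315-30422402, plus strand: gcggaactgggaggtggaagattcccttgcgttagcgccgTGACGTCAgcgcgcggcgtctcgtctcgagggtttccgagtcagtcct
The 4 immediate early genes of this set differed by log2 values of 2.45 (Btg2), 3.68 (Dusp1, a phosphatase of MAP kinases), 4.74 (Maff, a small MAF factor) and 3.87 (Ppp1r15a, a phosphatase subunit of the stress response), all past the test, and Nfkbid by 2.12.

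Cyclic AMP-responsive and clock genes were higher in 8 of 11 tested, beside 33.7% of all tested genes. Under all 4 scalings 4 were higher, beside 16.9%, and the median log2 difference of the list was 1.37. The clearest was Crem, a cyclic AMP-responsive transcription factor gene with repressor isoforms, at 1858, 1511 and 878 normalized reads in adipose, 38.2, 41.1 and 26.5 in spleen and 42.3, 25.1 and 41.1 in lymph node. The difference was 5.26 (SE 0.4, limma adjusted p = 7.86e-08), or 5.72 with library 1 alone. Adipose library 1 was the highest of the 3 for Crem and also for macrophage and MHC class II reads, whose part in this level was not tested. Sik1, a kinase that restrains cyclic AMP signalling, had 328, 393 and 495 normalized reads in adipose and at most 41.1 elsewhere (3.91, SE 0.43, adjusted p = 4.78e-06). Per1, a clock repressor, had 330, 270 and 346 in adipose and 45 to 67.3 in the lymphoid libraries (2.41, SE 0.29, adjusted p = 1.23e-05). Bhlhe40, a repressor that T cells use in cytokine production, had 340, 233 and 288 against at most 80.6 (2.99, SE 0.65, adjusted p = 0.00199). With library 1 alone the difference of Bhlhe40 was 3.25. Pde4b, a phosphodiesterase that degrades cyclic AMP, differed less (1.12, SE 0.28, adjusted p = 0.00561) and did not pass after quantile scaling (adjusted p = 0.0784) or total-read scaling (adjusted p = 0.0645).

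NF-κB feedback genes, induced by NF-κB and mostly acting to restrain it, were higher in 8 of 9 tested, beside 33.7% of all tested genes. Under all 4 scalings 5 were higher, beside 16.9%, and the median was 1.99. Tnfaip3, which encodes the ubiquitin-editing enzyme A20, had 1372, 1063 and 717 normalized reads in adipose, 53, 64.8 and 86.2 in spleen and 159, 149 and 122 in lymph node. The difference was 3.38 (SE 0.42, adjusted p = 1.72e-05). Its adipose values were highest in library 1, with the most macrophage and MHC class II reads, and lowest in library 3, with the most stromal reads. The part of other cells in these levels was not tested. Nfkbid, a nuclear IκB protein, had 208, 142 and 174 in adipose and at most 58 elsewhere (2.12, SE 0.36, adjusted p = 0.000364). Nfkbiz, another nuclear IκB protein that helps transcribe IL-17 target genes, had 281, 218 and 558 against at most 103 (1.99, SE 0.3, adjusted p = 8.47e-05). Rel, the c-Rel subunit, had 427, 240 and 325 against at most 147 (1.53, SE 0.32, adjusted p = 0.00155). All 4 passed with library 1 alone.

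**Figure D3:**
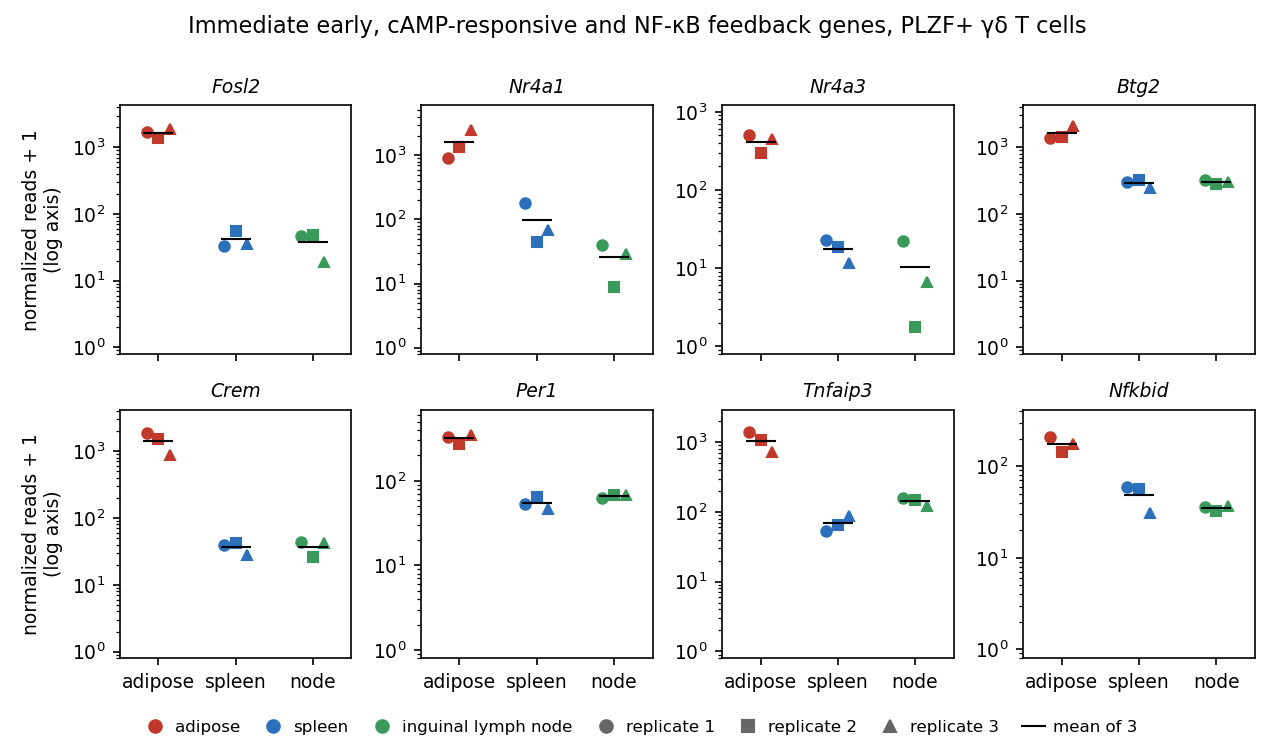
Normalized reads plus 1 (log axis) of 8 signalling genes in each of the 9 PLZF+ libraries; points are libraries, symbols give the replicate and dashes the mean of each tissue. For each gene the 3 adipose libraries lie above all 6 lymphoid libraries, as for Fosl2 with 1384 to 1875 against 18.1 to 55.

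Heat shock genes, which encode protein-folding chaperones, were higher in 10 of 12 tested, beside 33.7% of all tested genes. Under all 4 scalings 9 were higher, beside 16.9%, and the median was 1.85. With library 1 alone 1 of the 12 passed. Hspa1a and Hspa1b, near-identical genes between which reads may be split, had 118, 387 and 1110 and 93.2, 333 and 691 normalized reads in adipose and at most 9.9 in any lymphoid library (log2 differences 8.22, SE 1.2, and 8.25, SE 1.18; adjusted p = 7.2e-05 and 5.41e-05). They were lowest in library 1 and highest in library 3, as the endothelial markers were, and the part of other cells in these levels was not tested. Dnaja1, a co-chaperone, was more even at 252, 348 and 366 against 75.8 to 136 (1.61, SE 0.29, adjusted p = 0.000542; 0.132 with library 1 alone).

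The lowest log2 difference of the genes named by rule belonged to Dtx1, a Notch target that encodes a regulator of Notch signalling. It had 0 reads in all 3 adipose libraries, 241, 250 and 180 normalized reads in spleen and 65.8, 113 and 86.5 in lymph node. Set against a floor of 3 reads per adipose library, it was at least 29.3-fold lower. Cd7, a surface glycoprotein of T and NK cells, had 13.1, 2.99 and 2.52 normalized reads in adipose and 251 to 440 in the lymphoid libraries (log2 difference -5.81, SE 0.57, limma adjusted p = 1.4e-06). Cd6, which tunes T cell receptor signalling and binds ALCAM, had 5.25, 0 and 5.05 in adipose and 100 to 197 elsewhere (-5.48, SE 0.68, adjusted p = 1.52e-05). In adipose libraries 1 to 3 Cd7 had 10, 2 and 1 reads and Cd6 had 4, 0 and 2. A level under 3 reads cannot be told from 0, so the sizes of these differences are uncertain. All 3 genes also passed with library 1 alone, at adjusted p = 0.000685 for Dtx1, 0.00522 for Cd7 and 0.00703 for Cd6, and against spleen and lymph node taken apart.

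Of 7 chemokine receptors tested 3 were lower, 0 higher and 4 not past the test, beside 18.4% lower over all genes. Those that did not pass were Cxcr5 (log2 difference -1.59, adjusted p = 0.13), Cx3cr1 (-1.69, 0.0872), Cxcr4 (0.56, 0.294) and Ccr1 (1.17, 0.317). Ccr10, a receptor for skin and mucosal chemokines, had 2.63, 0 and 0 normalized reads in adipose, 48.8, 119 and 67.1 in spleen and 123, 244 and 214 in lymph node (-6.33, SE 0.55, adjusted p = 3.61e-07). The adipose values of Ccr10 were 2, 0 and 0 reads, which cannot be told from 0, so the size of its difference is uncertain. Ccr6, the CCL20 receptor that marks IL-17-producing γδ T cells, had 21, 20.9 and 10.1 in adipose, 187, 315 and 192 in spleen and 636, 675 and 842 in lymph node (-4.52, SE 0.54, adjusted p = 1.21e-05). Ccr9, the gut homing receptor, had 13.1, 2.99 and 0 in adipose and 121 to 145 in spleen. Its lymph node values of 29.6, 11 and 23 overlapped with adipose library 1, and the pooled difference was -3.69 (SE 0.68, adjusted p = 0.000666). With library 1 alone the difference of Ccr9 was -1.92. Itgae, the αE integrin CD103 that binds E-cadherin on epithelium, had 23.6, 13.4 and 15.1 in adipose, 130, 335 and 266 in spleen and 900, 1231 and 1265 in lymph node (-4.82, SE 0.64, adjusted p = 2.47e-05). Fut7, which builds selectin ligands, differed by -3.67 (SE 0.72, adjusted p = 0.00103), and Gpr18, a lipid-sensing receptor, by -3.29 (SE 0.53, adjusted p = 0.000225).

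Among 7 costimulatory and inhibitory receptor genes, 4 were lower and 2 higher, beside 18.4% and 33.7% of all tested genes. Sh2d1a, which encodes the SLAM adaptor SAP, had 0 reads in all adipose libraries, 105, 66 and 76.4 normalized reads in spleen and 26, 11 and 13.1 in lymph node, which is at least 9.31-fold lower. Slamf6, which encodes a receptor that recruits this adaptor, had 13.1, 7.46 and 5.05 in adipose and 345, 268 and 314 in spleen. Its lymph node values of 11.7, 18 and 25.5 were close to the adipose ones. The log2 difference was -5.11 (SE 0.36, adjusted p = 3.66e-08) against spleen and -1 (SE 0.36, adjusted p = 0.0321) against lymph node. Cd160, an inhibitory receptor, followed the same order, with 7.88, 5.97 and 10.1 in adipose, 266, 153 and 192 in spleen and 42.3, 16.4 and 26.8 in lymph node (-3.08, SE 0.57, adjusted p = 0.000666). In the other direction Ctla4, the inhibitory receptor for CD80 and CD86, had 137, 79.1 and 40.4 in adipose and at most 6.78 elsewhere (4.87, SE 1.05, adjusted p = 0.00192), with the highest value in library 1. With library 1 alone the difference of Ctla4 was 5.71. That library also held the highest share of macrophage markers and MHC class II genes among the adipose libraries, whose part in this level was not tested. Cd200r1, an inhibitory receptor, was higher (2.68, SE 0.65, adjusted p = 0.00417) but missed the threshold after quantile scaling (adjusted p = 0.0522).

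Genes of naive and recirculating lymphocytes were lower in 7 of 8 tested, out of 24 listed, beside 18.4% of all tested genes. Under all 4 scalings 4 were lower, beside 3.86%. The median was -2.06, or -1.82 with the gene without reads on a side set to its bound. Tcf7, the TCF1 transcription factor of naive and stem-like T cells, had 86.7, 40.3 and 20.2 normalized reads in adipose, 240, 291 and 270 in spleen and 202, 197 and 260 in lymph node (-2.5, SE 0.55, adjusted p = 0.00222). Ms4a6b, a T cell surface gene, had 118, 71.6 and 70.6 in adipose against 180 to 603 (-2.06, SE 0.38, adjusted p = 0.000658). With library 1 alone Tcf7 differed by -1.46 and Ms4a6b by -1.58. Foxp1, which maintains naive T cell quiescence, was lower on the deposited scale (-1.06, SE 0.31, adjusted p = 0.0116). It lost the call without adipose library 2 (adjusted p = 0.0507), without library 3 (0.072) and with CD3 scaling (0.763). E2f2, a cell cycle transcription factor, and Gsg2, the haspin kinase, were also among the lowest, at -4.17 (SE 0.79, adjusted p = 0.000769) and -4.92 (SE 0.74, adjusted p = 8.99e-05). E2f2 had 27.6, 0 and 0 normalized reads in adipose, so that library 1 stood apart for it, with a difference of -0.93 by itself. Gsg2 had 0, 2 and 0 reads in adipose, which cannot be told from 0, so the size of its difference is uncertain. Fam109b, the remaining gene named among the lowest, differed by -3.14 (SE 0.96, adjusted p = 0.0141) but not with CD3 scaling (adjusted p = 0.0537) or without adipose library 2 (adjusted p = 0.0705).

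**Figure D4:**
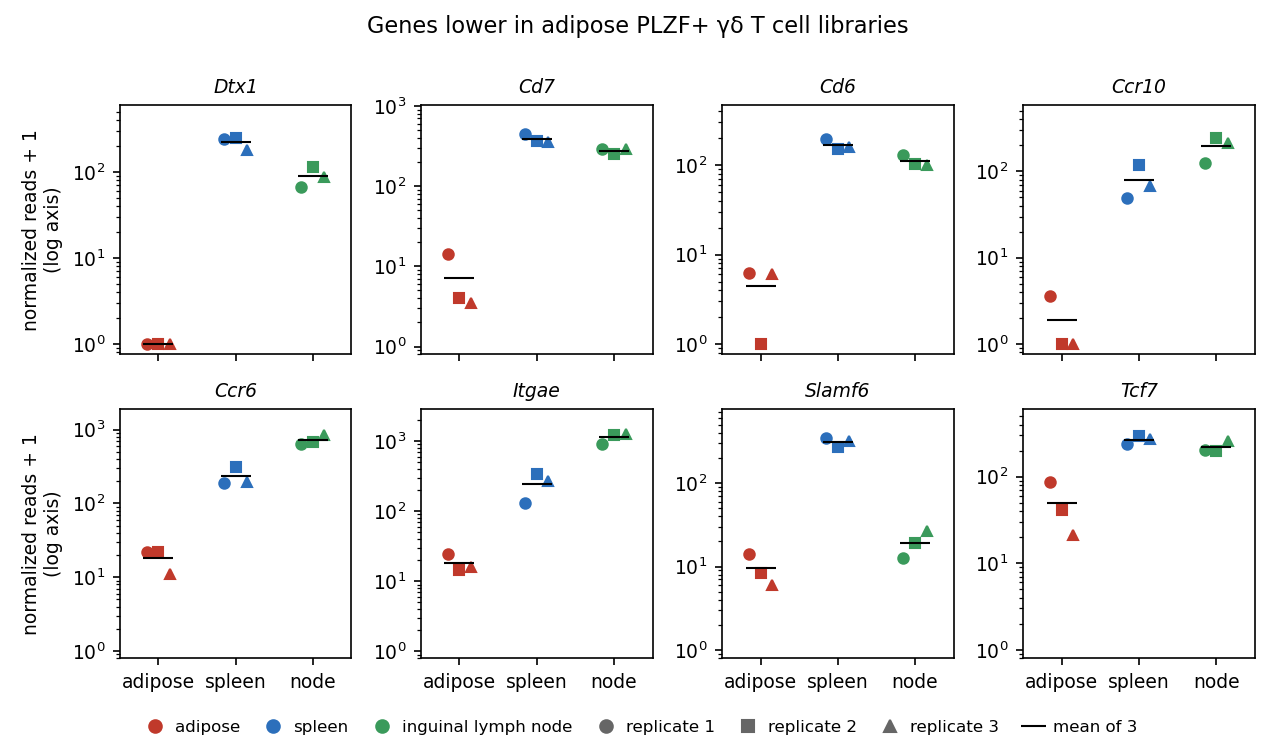
Normalized reads plus 1 (log axis) of 8 genes lower in adipose PLZF+ cells, by library and tissue. Dtx1 has 0 reads in all 3 adipose libraries, Slamf6 is near 300 in spleen only, and Ccr6 and Itgae are highest in lymph node.

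Of 10 tissue residency genes tested 7 were higher and 2 lower, beside 33.7% and 18.4% of all tested genes. The lower ones were Itgae and Ccr10. P2rx7, the ATP-gated channel that makes resident T cells prone to death on release of nucleotides, had 265, 227 and 204 normalized reads in adipose, 129, 116 and 144 in spleen and 10.2, 4.7 and 1.87 in lymph node. The log2 difference was 3.21 overall (SE 0.44, limma adjusted p = 3.81e-05), 5.57 (SE 0.51, adjusted p = 5.91e-07) against lymph node and 0.84 (SE 0.51, adjusted p = 0.19) against spleen. Vps37b, an endosomal sorting gene, had 791, 608 and 487 in adipose and at most 52 elsewhere (4.08, SE 0.63, adjusted p = 0.000131). Litaf, a lysosomal protein gene, had 154, 405 and 603 against at most 63.6 (3.27, SE 0.57, adjusted p = 0.000466), with library 1 lowest. Of 9 purinergic genes 5 were higher and 1 lower, beside 33.7% and 18.4% of all tested genes. P2ry10, a lysophospholipid receptor, had 1062, 770 and 373 in adipose and 109 to 231 elsewhere (2.13, SE 0.48, adjusted p = 0.00242). Cd38, an NAD-consuming ectoenzyme, had 68.3, 224 and 184, against at most 67.9 elsewhere, so that library 1 lay next to the highest spleen library (2.61, SE 0.58, adjusted p = 0.00232). Art2b, an ADP-ribosyltransferase that acts on P2RX7, was the lower one. It had 77, 64.8 and 65.3 in spleen and at most 2.55 in the adipose and lymph node libraries, and it lost its call (-2.5, SE 0.7, adjusted p = 0.00945) without adipose library 2 (adjusted p = 0.0705) and with CD3 scaling (0.112).

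The genes of the antigen receptor itself were lower by a smaller amount. Of 12 tested genes of the γδ T cell receptor and CD3 list 8 were lower, beside 18.4% of all tested genes. The median was -1.07, and Cd6 alone of the list was lower under all 4 scalings. CD3 scaling sets the mean of Cd3e, Cd3g, Cd3d and Cd247 equal in all libraries, so that criterion cannot decide for these members. Cd3d, a CD3 chain, had 349, 288 and 169 normalized reads in adipose, 686, 656 and 399 in spleen and 462, 575 and 610 in lymph node (-1.1, SE 0.35, adjusted p = 0.018). Tcrg-C2 differed by -1.43 (SE 0.46, adjusted p = 0.018) and Tcrg-V4, a variable segment of the receptor γ chain, by -2.11 (SE 0.71, adjusted p = 0.0214). Without adipose library 3 the adjusted p was 0.131 for Cd3d, 0.142 for Tcrg-C2 and 0.099 for Tcrg-V4, the last also at 0.0589 without library 2. Reads of near-identical γ segments may have been split between them. All 6 tested genes of αβ T cells were lower as well, beside 18.4% of all tested genes, and 4 were lower under all 4 scalings. Their median was -2.25, or -2 with the gene without reads on a side set to its bound. Trbc2, a constant region of the receptor β chain, had 322, 199 and 136 in adipose and 670 to 922 elsewhere (-1.92, SE 0.39, adjusted p = 0.0014), and Cd8b1 had 0 reads in adipose, at least 2.27-fold lower. Themis, a regulator of T cell receptor signalling in development, differed by -2.58 (SE 0.54, adjusted p = 0.00161; 0.051 with limma voom on the recovered reads), and Trbv3, a β chain segment, by -2.42 (SE 0.46, adjusted p = 0.000751).

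Of the 5 tested genes of the IL-17-producing γδ lineage, out of 25 listed, 2 were higher and 3 lower, beside 33.7% and 18.4% of all tested genes. Il17a had 142, 55.2 and 25.2 normalized reads in adipose, 2.83, 5.79 and 0 in spleen and 4.59, 11.7 and 15.6 in lymph node. All adipose libraries lay above all lymphoid ones, library 1 farthest (3.82, SE 0.96, limma adjusted p = 0.00554; 5.08 and adjusted p = 0.0629 with library 1 alone). Against spleen the difference was 5.04 (SE 1.11, adjusted p = 0.00363), and against lymph node it was 2.61 (SE 1.11, adjusted p = 0.0594). Il17f, its paralog, had 31.5, 22.4 and 30.3 in adipose and at most 9.39 elsewhere. Its difference of 3.42 (SE 1.13, adjusted p = 0.0204) did not pass after quantile scaling (adjusted p = 0.0733), total-read scaling (0.0785), without adipose library 2 (0.0513) or without library 3 (0.0766). The lower genes were Ccr6, 5830411N06Rik and Ptgdr2. 5830411N06Rik, a scavenger receptor gene, had 112, 56.7 and 106 in adipose, 283, 467 and 545 in spleen and 1234, 1437 and 2685 in lymph node (-3.24, SE 0.56, adjusted p = 0.000401). Ptgdr2, the prostaglandin D2 receptor CRTH2, had 13.1, 5.97 and 32.8 in adipose and 292, 373 and 426 in lymph node, while its spleen values of 34.6, 49.8 and 17.2 overlapped with adipose (-2.86, SE 0.61, adjusted p = 0.00174).

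Among secreted factors, 5 of 11 cytokine and chemokine genes tested were higher, 1 was lower and 5 did not pass, beside 33.7% higher and 18.4% lower over all tested genes. Tnfsf11, which encodes RANKL, the ligand of RANK, had 411, 525 and 315 normalized reads in adipose, 16.3, 6.37 and 3.7 in spleen and 14.3, 9.39 and 3.73 in lymph node (5.68, SE 0.74, adjusted p = 2.23e-05; 5.69 and adjusted p = 0.00984 with library 1 alone). Cxcl2, a neutrophil chemokine, had 144, 100 and 184 in adipose, at most 10.4 in spleen and 0 in all lymph node libraries (6.88, SE 1.03, adjusted p = 8.99e-05). Il6 had 15.8, 142 and 240 in adipose and at most 5.65 elsewhere (6.29, SE 1.14, adjusted p = 0.000586), library 1 again lowest and not past the test by itself (adjusted p = 0.219). Ltb, lymphotoxin β, a membrane cytokine that organises lymphoid tissue, was the lower gene, at 504, 412 and 227 against 639 to 1477 (-1.61, SE 0.44, adjusted p = 0.00797; 0.0716 without adipose library 3).

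Type 2 and repair genes were higher in 8 of 12 tested and lower in 0, beside 33.7% and 18.4% of all tested genes. Under all 4 scalings 4 were higher, beside 16.9%. Areg, the EGF receptor ligand amphiregulin that lymphocytes secrete in tissue repair, had 31.5, 13.4 and 10.1 normalized reads in adipose and at most 2.04 elsewhere (4.72, SE 0.87, adjusted p = 0.000666; 0.0273 with library 1 alone). Calca, the gene of calcitonin and the neuropeptide CGRP, had 81.4, 28.4 and 15.1 against at most 5.54 (4.21, SE 1, adjusted p = 0.00372). With library 1 alone the difference of Calca was 5.48. For both genes library 1 was highest, the reverse of the endothelial and adipocyte markers. Library 1 also held the highest share of macrophage markers and MHC class II genes among the adipose libraries, whose part in these levels was not tested. Penk, the enkephalin precursor, had 14.4, 98.5 and 98.4 against at most 6.78 and ran with the endothelial and adipocyte markers instead (4.44, SE 1.15, adjusted p = 0.00626). Il1rl1, the IL-33 receptor, had 64.4, 8.96 and 15.1 in adipose and 2.04 to 12.3 elsewhere and did not pass (1.84, SE 1, adjusted p = 0.117; 0.0415 when only the 9 libraries were fitted and 0.027 with CD3 scaling).

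Of 9 cytokine receptors 3 were higher and 1 lower, shares near or below the 33.7% and 18.4% of all tested genes. Il4ra, a chain of the IL-4 and IL-13 receptors, had 577, 670 and 918 normalized reads in adipose and 107 to 184 in the lymphoid libraries (2.41, SE 0.26, adjusted p = 3.8e-06; 0.00648 with library 1 alone). Ifngr1, the interferon γ receptor, had 3793, 2944 and 2319 in adipose and 511 to 1114 elsewhere (1.88, SE 0.4, adjusted p = 0.00182). Il17ra, the IL-17A receptor, was lower, at 137, 142 and 85.8 against 301 to 507 (-1.66, SE 0.31, adjusted p = 0.000706). With library 1 alone Ifngr1 differed by 2.24 and Il17ra by -1.45.

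Interferon-stimulated genes were lower in 9 of 10 tested, out of 28 listed, beside 18.4% of all tested genes. Under all 4 scalings 3 were lower, beside 3.86%, and the median was -1.82. Ifi47, an interferon-induced GTPase, had 55.2, 79.1 and 95.9 normalized reads in adipose, 420, 365 and 303 in spleen and 329, 263 and 367 in lymph node (-2.16, SE 0.38, limma adjusted p = 0.000509; 0.0198 with library 1 alone). Mx1, an antiviral GTPase, had 6.57, 0 and 0 in adipose against 14.9 to 51 (-3.77, SE 0.8, adjusted p = 0.00168). With library 1 alone the difference of Mx1 was -1.84.

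Lipid handling was the metabolic list with the most genes tested. Of its 20 genes 15 were higher, beside 33.7% of all tested genes, and 0 were lower. Under all 4 scalings 12 were higher, beside 16.9%, and the median was 3.33. Of those 15 genes 7 also stand on the adipocyte marker list (Fabp4, Lpl, Lipe, Plin1, Plin4, Dgat2 and Acsl1), and with library 1 alone 3 of the 20 passed. Its members split by how adipose library 1 behaved. Hilpda, a lipid droplet protein that inhibits the lipase ATGL, had 707, 366 and 333 normalized reads in adipose, 21.2, 22.6 and 14.2 in spleen and 21.9, 25.1 and 29.9 in lymph node (4.31, SE 0.39, limma adjusted p = 5.27e-07). Dgat1, which makes triglyceride, had 935, 563 and 520 in adipose, 29, 39.4 and 40 in spleen and 57.1, 37.6 and 56 in lymph node (3.94, SE 0.4, adjusted p = 1.85e-06). Both were highest in library 1 and passed with it alone, at 4.99 (adjusted p = 0.000186) for Hilpda and 4.47 (adjusted p = 0.000685) for Dgat1. Plin2, a lipid droplet coat protein, had 394, 473 and 742 against 33.6 to 71.9 (3.35, SE 0.48, adjusted p = 5.56e-05; 0.0345 with library 1 alone). Fabp4, a fatty acid carrier of adipocytes and capillary endothelium that stands on the endothelial marker list too, had 159, 4068 and 9078 in adipose and at most 18.5 elsewhere (9.06, SE 1.5, adjusted p = 0.000272; 0.165 with library 1 alone). Cd36, a fatty acid transporter, had 378, 3069 and 5379 against at most 77.8 (6.68, SE 1.28, adjusted p = 0.000871; 0.24 with library 1 alone). The share of these reads that came from other cells was not tested.

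**Figure D5:**
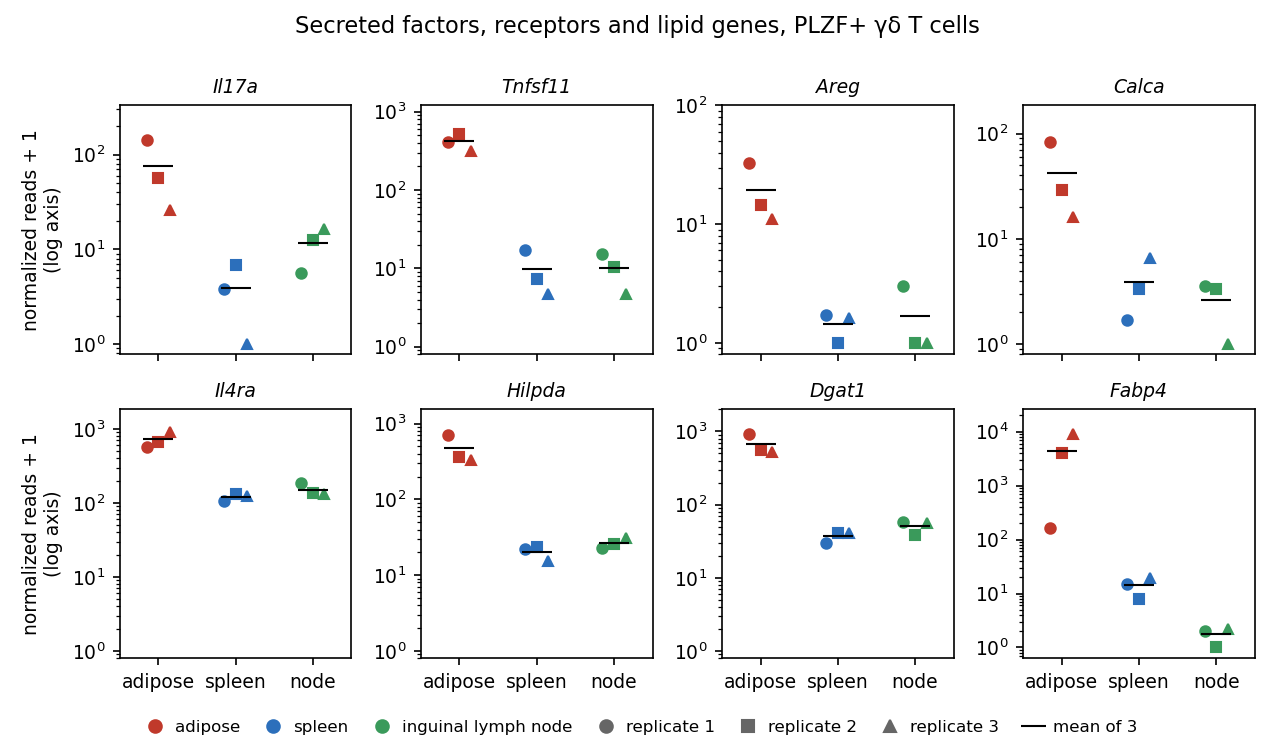
Normalized reads plus 1 (log axis) of secreted factors, a cytokine receptor and lipid genes by library and tissue. Hilpda and Dgat1 are highest in adipose library 1 (red circles; 707 and 935), whereas Fabp4 has 159 in library 1 and 4068 or more in libraries 2 and 3.

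Other metabolic groups held few genes in the table, and their counts stand beside 33.7% higher and 18.4% lower over all tested genes. Of 5 glycolysis genes tested, Hk2 and Hk3 were higher and Aldoc lower. Hk2, the inducible hexokinase, had 106, 77.6 and 58 normalized reads in adipose and 9.9 to 16.8 in the lymphoid libraries (2.5, SE 0.34, limma adjusted p = 3.24e-05; 2.94 and adjusted p = 0.00522 with library 1 alone). Hk3 (adjusted p = 0.0319) and Aldoc (adjusted p = 0.0398) did not pass under all 4 scalings, and each lost its call without adipose library 3, at adjusted p = 0.112 and 0.277. Hk3 also lost it without adipose library 1 or 2, lymph node library 2 or 3 or spleen library 1 (adjusted p = 0.0549 to 0.0747), and Aldoc without adipose library 2, lymph node library 2 or 3 or spleen library 1 or 2 (0.0523 to 0.0892). Slc16a3, a lactate exporter, was at 97.2, 91.1 and 65.6 against 17.2 to 65.3 and did not pass (0.96, SE 0.57, adjusted p = 0.146), but it was called higher with CD3 scaling (1.88, adjusted p = 0.0239) and with library weights (0.98, 0.0423). Gapdh did not pass either (0.77, SE 0.57, adjusted p = 0.237); it was called higher with CD3 scaling (1.68, adjusted p = 0.0348), and its sign turned with quantile scaling (-0.44). Of 12 nuclear subunits of oxidative phosphorylation 1 was lower, Cox7c (-1.07, SE 0.35, adjusted p = 0.0201), and it was not called with CD3 scaling (adjusted p = 0.809) or without adipose library 1 (adjusted p = 0.0606) or library 2 (0.0833). Ndufs4 was at -0.69 (SE 0.32, adjusted p = 0.0737). It was called lower with quantile scaling (-1.18, adjusted p = 0.0161), total-read scaling (-1.28, 0.00904), only the 9 libraries fitted (0.0212), lung left out (0.0228) and library weights (0.00498), and was at 0.22 with CD3 scaling. Of 4 solute carriers 2 were higher: Slc3a2, the heavy chain of the CD98 amino acid transporter, had 705, 736 and 792 in adipose and 124 to 223 elsewhere (2.06, SE 0.26, adjusted p = 1.86e-05), and Slc38a2, a glutamine transporter, differed by 1.86 (SE 0.38, adjusted p = 0.00125). Of 6 hypoxia-responsive genes 4 were higher, of which Ndrg1 passed under all 4 scalings (2.77, SE 0.68, adjusted p = 0.00456); Hif1a itself differed by 1.17 (SE 0.34, adjusted p = 0.0114; 0.067 without adipose library 3). Cholesterol and fatty acid synthesis had 3 genes higher and 2 lower of 7, with 0 called under all 4 scalings. Of 15 ribosomal protein genes 1 was lower, Rpl30 (-1.05, SE 0.4, adjusted p = 0.0363). It lost its call with CD3 scaling (adjusted p = 0.783), without adipose library 2 or 3 (0.101 and 0.217), without lymph node library 2 (0.0628) and without spleen library 2 or 3 (0.0632 and 0.0503). Rps3 was at -0.68 (SE 0.35, adjusted p = 0.1). It was called lower with quantile scaling (-1.25, adjusted p = 0.0148), total-read scaling (-1.26, 0.0169), only the 9 libraries fitted (0.0144), library weights (0.00175) and the replicate block (0.031), and was at 0.23 with CD3 scaling.

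Marker genes of other adipose cells had log2 differences among the highest in the table, and their summed level was lowest in library 1 of the adipose libraries. Beside 33.7% of all tested genes, endothelial markers were higher in 18 of 20 and fibroblast and stromal markers in 20 of 23. Adipocyte markers were higher in 14 of 16 and mesothelial markers in 4 of 5. With library 1 alone 0, 1, 0 and 0 of these lists passed. Cldn5, a tight junction protein of endothelium, had 99.8, 2703 and 5372 normalized reads in adipose and at most 1.16 elsewhere (11.16, SE 1.77, limma adjusted p = 0.000167). Adipoq, the adipocyte hormone adiponectin, had 15.8, 104 and 192 against at most 3.47 (6.32, SE 1.08, adjusted p = 0.000356). Sparcl1, Ptrf, Cav1, Adgrl4, Adamts1 and Cyr61, genes of vascular and stromal cells, had log2 differences from 7.21 to 8.69 with library 1 between 15.8 and 67 normalized reads and libraries 2 and 3 at 367 or more. Thbs1, a matrix glycoprotein gene, was at 181, 684 and 1481 against at most 15.1 (8.27, SE 0.7, adjusted p = 2.72e-07), and it passed with library 1 alone (adjusted p = 0.0011).

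The summed macrophage and monocyte markers ran apart from the stromal ones. Of 22 macrophage and monocyte markers 14 were higher, beside 33.7% of all tested genes. Retnla, a secreted product of alternatively activated macrophages and the gene with the highest log2 difference under the naming rule, had 2157, 331 and 1032 normalized reads in adipose and at most 4.05 in the lymphoid libraries (9.66, SE 1.2, adjusted p = 1.52e-05). It had 56.3, 913 and 1806 in adipose PLZF- cells and 38.2, 32 and 24.3 in lung PLZF+ cells. Cd14, the lipopolysaccharide co-receptor, had 273, 65.7 and 199 in adipose, 11.3, 15.6 and 3.7 in spleen and 0 in lymph node (6.51, SE 0.66, adjusted p = 1.85e-06). The chemokines Cxcl1 and Ccl2 were at 106, 299 and 507 and at 139, 122 and 336 against at most 4.95 (adjusted p = 1.44e-05 and 0.000558). C1qa, a complement gene of tissue macrophages, was higher than in lymph node (8.4, SE 1.15, adjusted p = 5.68e-05), whereas against spleen, at 95.4, 69.5 and 25.9, the difference did not pass (1.7, SE 1.15, adjusted p = 0.233), although all adipose values, 193, 118 and 260, lay above the spleen ones. Library 1 was thus not the lowest adipose library for Retnla, Cd14, C1qa and Ccl2, whereas it was the lowest for Cxcl1. Of 3 MHC class II genes 0 passed, and Cd74 (2.49, SE 1.2, adjusted p = 0.0819) passed at 3.3 (adjusted p = 0.0209) without lymph node library 1 and at 3.4 (0.0357) with CD3 scaling. Of 16 B cell markers 4 were lower and 1 higher, beside 18.4% and 33.7% of all tested genes. Igkc, the immunoglobulin κ constant region, had 1296, 3301 and 1535 in spleen and at most 6.26 in the other libraries compared (-5.88, SE 1.77, limma adjusted p = 0.0134). The adjusted p was 0.0573 without adipose library 3 and 0.195 with limma voom. Cd79b, a B cell receptor chain, lay below all lymphoid libraries, at 32.8, 28.4 and 20.2 against 119 to 334 (-2.78, SE 0.54, adjusted p = 0.00095).

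Set against each lymphoid tissue separately, adipose cells gave different numbers of calls. Against spleen 632 genes (19.2%) were higher and 365 (11.1%) lower, and against lymph node 1059 (32.1%) were higher and 487 (14.8%) lower. Without adipose library 2 the counts were 332 and 216 against spleen and 663 and 263 against lymph node, and without library 3 they were 249 and 168 and 460 and 175. Spleen library 1 or 2 also moved the first pair by over 1.5 times, to 365 and 186 or to 341 and 177. Lymph node libraries moved the lower count of the second pair, to 296, 297 and 197 without library 1, 2 or 3, and without library 3 the higher count was 639. Genes called in the same direction against both numbered 503 higher and 246 lower; since the contrasts share the adipose libraries, that overlap is a count and not independent support. Crem and Fosl2 had near-equal differences against either tissue, at 5.27 and 5.25 for Crem and at 5.36 and 5.59 for Fosl2. P2rx7, C1qa and Cd38 passed against lymph node and did not pass against spleen, where adjusted p was 0.19, 0.233 and 0.125. Art2b and Igkc passed against spleen and did not pass against lymph node, where adjusted p was 0.762 and 0.538. Spleen and lymph node were not tested against each other.

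PLZF- γδ T cells of the same tissues allowed a test of whether these differences depended on the subset. In PLZF- cells 1437 genes (43.6%) were higher in adipose and 848 (25.7%) lower. Of the 1110 genes higher in PLZF+ cells 1032 were also higher in PLZF- cells, and of the 605 lower ones 451 were also lower, with 0 genes called in opposite directions. These contrasts share no library, but both start from a table chosen for tissue differences, and the adipose libraries of both subsets hold the same kinds of marker RNA. The difference between the subsets' effects passed the test in 0 of 3294 genes by limma, with 128 genes (3.89%) at an unadjusted p under 0.05, and the smallest adjusted p was 0.138. With limma voom the count was 0 too; without PLZF- adipose library 1 it was 2 higher, and without PLZF+ adipose library 1 it was 1 lower. Adipose libraries of the same number ran together between the subsets, with endothelial markers at 0.0417%, 4.51% and 6.04% of normalized reads in PLZF- libraries 1, 2 and 3. With tissue and replicate number together as a block, added after seeing the data, 0 genes were higher and 1 lower, with 255 at an unadjusted p under 0.05. Weighting the libraries by their quality gave 234 higher and 189 lower, a setting in which the weights could not be fully fitted. The gene called with the block was Cd7, with 13.1, 2.99 and 2.52 normalized reads in adipose PLZF+ cells and 235, 54.1 and 49.8 in adipose PLZF- cells (difference of effects -3.75, SE 0.81, adjusted p = 0.187 without the block and 0.0288 with it). For the immediate early genes 28 of 28 were higher in PLZF- adipose cells too, beside 43.6% of all tested genes.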

How the data were processed

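Libraries were made with SMARTseq2 from sorted cells and the submitters' processing notes name HISAT 0.1.6, SAMtools 1.2, Cufflinks 1.2 and build mm10. The deposited expression values are log2 values of TMM normalized reads, per the file headers, and behave as log2 of reads plus 0.5 with a library term and a gene term. The deposited table was limited by the authors to genes with an FDR (q-value) below 0.05 for a tissue difference, per the file headers. These q-values were not entered in a test here, but they chose the genes that could be tested. The adjusted p-values therefore need not keep the false discovery rate they state. The table of 7926 genes held 11 collapsed rows, which were left out. Whole reads were recovered for all 7915 other genes: of 189813 values precise enough to check, 100% lay within 0.1 of a whole number. They were multiplied by each library's term, centred over the 24 libraries, to give normalized reads.

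The test was limma 3.58.1 (R 4.3.3) with a mean-variance trend on the deposited log2 values, 8 group means over 24 libraries, no block, and Benjamini-Hochberg adjustment over 3294 genes with at least 10 normalized reads in at least 3 libraries. The log2 differences and standard errors are on that scale; where a group has 0 reads, a bound from 3 reads per library is given instead, which covers counting error only. The depth of 198166 to 527542 recovered reads over the table limits low genes. The procedure was also run on simulated data that held no difference in other-cell RNA between libraries. That run cannot speak to such differences, and its outcome is not given here. Sums, figures and motif searches used Python 3.11.15, pandas 2.3.3 and matplotlib 3.10.9.

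Named genes are the 12 highest and 12 lowest by log2 difference, marker genes of other cells and unnamed gene models set apart, among called genes without overlap between the groups, with a mean of at least 50 normalized reads in the higher group and the same call on log2(normalized reads + 1), and, of each gene list, up to 5 members by smallest adjusted p; genes named outside this rule are marked. The members, the 33 lists and the rule were chosen with earlier results of these data known. Of the lists, NK and cytotoxic genes had 0 genes in the table, and neither the single proliferation gene tested nor any of 5 mast cell, granulocyte and erythroid genes passed. Alternatives covered pseudocount, filter, scaling, tool, libraries in the fit, library weights, the replicate block and leaving out each library. A result that the naming rule gave is not reported here.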

Additional observations from a re-analysis of the deposited data

How the results depend on the processing

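Against the lymphoid mean, where 1110 genes were higher and 605 lower, a mean of at least 50 normalized reads gave 521 and 391, quantile scaling 617 and 1054, total-read scaling 616 and 1018, CD3 scaling 127 lower, library weights 1084 lower, adipose library 1 alone 78 and 44, and the same call under all 4 scalings 557 and 127, the last chosen after seeing the data. Leaving out each library gave 443 to 1119 higher and 235 to 589 lower. Against spleen (632 and 365) the same settings gave, in order, 413 and 216 with the higher mean, 378 and 585 with quantile scaling, 332 and 780 with total-read scaling, 123 lower with CD3 scaling, 1247 and 985 with library weights and 73 and 56 with library 1 alone. No filter gave 225 lower, only the libraries compared gave 612 lower, and leaving out each library gave 249 to 844 higher and 168 to 422 lower. Against lymph node (1059 and 487) voom gave 654 higher, no filter 278 lower, the higher mean 458 higher, quantile scaling 587 and 925, total-read scaling 704 and 843, CD3 scaling 69 lower, only the libraries compared 748 lower, library weights 955 lower, library 1 alone 96 and 39, and leaving out each library 460 to 1122 higher and 175 to 497 lower. For the difference between the subsets (0 and 0) the higher mean gave 1 higher, CD3 scaling 7 lower, library weights 234 and 189, and leaving out each library 0 to 2 higher and 0 to 1 lower. The remaining settings kept the counts within 1.5 times.

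Between tissues the replicate numbers did not pair the PLZF+ samples: deviations of same-numbered libraries correlated at 0.15, -0.06 and 0.18 between adipose and spleen and at 0.06, 0.17 and -0.14 between adipose and lymph node. With a replicate block 1186 genes were higher and 702 lower against the lymphoid mean, 730 and 434 against spleen and 1138 and 574 against lymph node, and 1 gene was lower for the difference between the subsets. Between the subsets of a tissue, same-numbered libraries correlated at 0.75, 0.31 and 0.66 in adipose and at 0.41, 0.23 and 0.25 in lymph node, but at 0.00, -0.06 and -0.06 in spleen, and no label says what a number shares. PLZF+ adipose library 2 correlated more with PLZF- library 3 (0.38) than with library 2. With tissue and number together as a replicate block, chosen after seeing the data, the difference between the subsets had 0 genes higher and 1 lower.

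Of the single genes, Gapdh turned sign with quantile scaling (-0.44), and Ndufs4 (0.22) and Rps3 (0.23) turned with CD3 scaling, none of them past the test on the deposited scale. Ndufs4 and Rps3 were called lower under 5 other settings each, Gapdh was called higher with CD3 scaling (adjusted p = 0.0348), and Slc16a3 was called higher with CD3 scaling and with library weights. Leaving out adipose library 3 cost 15 of the named genes their call, library 2 cost 10 and library 1 cost 4. With adipose library 1 alone 65 lost it, a setting with fewer samples. The cause of the other changes was not tested. In the adipose libraries a level under 3 reads, which is 3.94, 4.48 and 7.57 normalized reads in libraries 1 to 3, cannot be told from 0.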
